A study of Mus musculus with 12 samples.

Results

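Transcripts of 8 complement genes were examined in murine bone marrow-derived macrophages (BMDMs): the C1q chains C1qa, C1qb and C1qc, the central component C3, the alternative pathway proteins Cfb and Cfp, and the anaphylatoxin receptors C3ar1 and C5ar1. They were taken by exact match of these symbols among the 24421 genes of the deposited count table, and 8 of 8 were found and passed the filter on low counts that left 11468 genes for testing. BMDMs from wild-type C57BL/6 mice were grown for 5 days in M-CSF (100 ng/mL) and stimulated for 4 hours with ovalbumin alone (Ova) or with ovalbumin bound by IgG into immune complexes (IC), each with I-BET151 (iBET, 5.0 µM) or with the solvent DMSO (5% per the labels). I-BET151 blocks the bromodomains of the BET proteins, which read acetylated histones. The design thus had 4 groups of 3 libraries, namely Ova with DMSO, Ova with iBET, IC with DMSO and IC with iBET, and every one of the mice A, B and C was present once in each. The labels describe drug and stimulus as simultaneous, whereas the methods place the drug 30 minutes earlier, so this order is uncertain.

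Complement is a cascade of plasma proteins that marks targets for uptake and releases small peptides that attract and activate leukocytes. In the classical pathway C1q, a hexamer of trimers each built from an A, a B and a C chain, binds antibody in immune complexes and starts cleavage of C3. Factor B, encoded by Cfb, supplies the protease of the alternative pathway convertase, and properdin, encoded by Cfp, stabilizes that enzyme. Cleavage of C3 and C5 frees the anaphylatoxins C3a and C5a, which signal through C3ar1 and C5ar1, both coupled to G proteins, while C5ar2 binds C5a without such coupling. Most circulating complement is made by the liver, but macrophages are the main source of C1q and also make C3, factor B and properdin, and C5a signalling is known to shift the balance of activating and inhibitory Fcγ receptors on macrophages.

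The libraries held between 7.55 M and 17.39 M counts. In 11 libraries the ribosomal precursor Rn45s took 1.41% to 7.83% of these, but it reached 77.4% in DMSO Ova of mouse A, which left 1.768 M counts for other genes. This library also stood apart from the others on the second principal component, with 17.4% of the variance. Levels below are CPM, counts scaled to the library's size after TMM normalization, given as mean ± SD over the 3 libraries of a group. The macrophage markers Adgre1, Csf1r, Cd68, Fcgr1, Mertk, Lyz2 and Cd14 were all kept by the filter and together reached between 5568 and 7707 CPM in every library, while mast cell and erythroid markers were at 0 counts.

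The promoters of the members with a motif match are shown first. The RefSeq promoter table (GRCm38.p6) held windows for 6 of the 8 members, reaching from 250 bases before the transcription start to 50 after it; windows for C1qa and Cfb were not used here. The windows were searched on both strands for PU.1 (GAGGAAGT), ISRE (GAAANNGAA), GAS (TTCNNNGAA), NF-kB (GGGANTTTC), AP-1 (TGAGTCA or TGACTCA), C/EBP (TTGCNNNAA), E-box (CACGTG) and TFEB/CLEAR (GTCACGTG), the last of which contains the E-box letters. Capitals mark the match in stretches of 93 or 100 bases, written 5′ to 3′ on the gene's own (minus) strand.
C3ar1, chr6:122856162-122856261: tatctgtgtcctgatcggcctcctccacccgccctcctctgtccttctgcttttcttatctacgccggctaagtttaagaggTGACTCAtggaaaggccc
C5ar1, chr7:16259366-16259465: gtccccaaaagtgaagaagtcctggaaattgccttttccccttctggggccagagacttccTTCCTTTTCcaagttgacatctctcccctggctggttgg
C1qc, chr4:136893072-136893164: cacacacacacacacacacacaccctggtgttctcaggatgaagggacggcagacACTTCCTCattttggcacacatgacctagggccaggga

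In C3ar1 the capitals are the AP-1 letters TGACTCA, which lie at -22 to -16 from the start. AP-1 matches were held by 5.2% of the 32851 windows in the table. In C5ar1 they are the ISRE letters on the opposite strand, at -66 to -58, and 8.56% of windows held such a match. Positions are counted from the RefSeq start, which differs from that of GENCODE vM21 in some genes. By GENCODE C5ar1 spans 7:16246743-16259540, so its stretch lies inside that gene and not upstream of it. The stretches of C3ar1 and C1qc lie upstream of their genes in both. In C1qc they are the PU.1 letters on the opposite strand, at -195 to -188, as in 3.2% of windows. C1qb, C3 and Cfp held no match to any of these letters in this window, and no member held GAS, NF-kB, C/EBP, E-box or TFEB/CLEAR letters there. A match is a description of the sequence and was not tested for binding.

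In both DMSO groups C3ar1 was the most abundant member per length of transcript. In DMSO Ova it reached 467 ± 29.6 CPM per kilobase of exon, followed by C1qb (328 ± 67.0), C1qa (210 ± 45.3), C1qc (172 ± 54.9), C5ar1 (149 ± 16.6) and Cfp (117 ± 28.8). C3 was far lower at 16.4 ± 5.99 CPM per kilobase, and Cfb lowest at 2.95 ± 0.855. In this order C1qa and C1qc, C1qc and C5ar1, and C5ar1 and Cfp differed by less than the sum of their SDs. With iBET the level of C1qb was above that of C3ar1, at 369 ± 81.3 against 302 ± 73.5 CPM per kilobase in Ova and 395 ± 76.6 against 318 ± 47.5 in IC, where C1qa stood at 324 ± 100.1, and these levels differed by less than the sum of their SDs. C1qc stood below C5ar1 with iBET, at 169 ± 33.4 against 209 ± 31.7 CPM per kilobase in Ova and 171 ± 39.6 against 265 ± 11.7 in IC. In Ova that difference was also less than the sum of the SDs. In DMSO IC C1qc and C5ar1 were level, at 170 ± 42.9 and 168 ± 22.8 CPM per kilobase. Cfb had at most 271 counts in a library, the fewest of the members, so counting error weighs most on it.

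The genes of the C1q chains are neighbours on chromosome 4 on the minus strand (GENCODE vM21, GRCm38/mm10: C1qb at 4:136880129-136886187, C1qc at 4:136889804-136893065 and C1qa at 4:136895917-136898803). C3 lies at 17:57203970-57228136 and holds Mir6978. Cfb lies at 17:34856374-34862518 and is overlapped on its own strand by the read-through gene Gm20547, so its reads could be shared and its value is uncertain. C3ar1 lies at 6:122847138-122856161 and Cfp at X:20925454-20931555. C5ar1 lies at 7:16246743-16259540, 2589 bases from C5ar2.

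**Figure D1:**
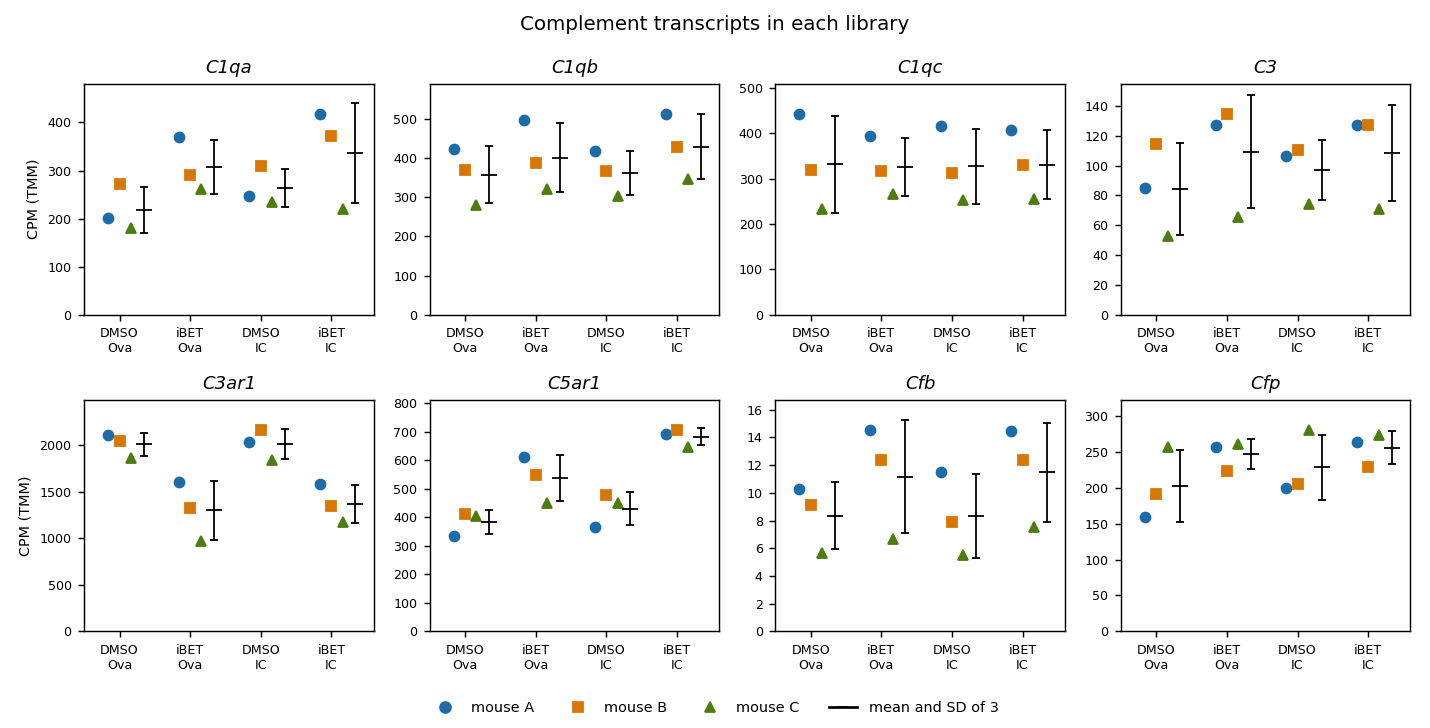
TMM-normalized CPM (linear axis from 0) of the 8 complement transcripts in each of the 12 libraries, by group, with symbols for mice A, B and C and a bar for mean ± SD (n = 3). C3ar1 is lower and C5ar1 higher in the iBET libraries, and C1qa, C1qb, C1qc, C3, C3ar1 and Cfb keep the lowest value in mouse C in every group.

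Whether engagement of Fcγ receptors by IC changed these transcripts was asked first in cells without the drug. None of the 8 members was called between DMSO IC and DMSO Ova by edgeR's quasi-likelihood test at a Benjamini-Hochberg adjusted p under 0.05, where 1.22% of the 11468 genes were called (140 genes, and between 0 without mouse B and 159 without mouse A when a library or mouse was left out), and none had an unadjusted p under 0.05. C3ar1 stood at 2009 ± 127 CPM in DMSO Ova and 2011 ± 163 in DMSO IC, a log2 fold change of 0.0017 (SE 0.17, 95% interval -0.36 to 0.36). The widest intervals were those of C3 (-0.55 to 0.97) and Cfb (-0.75 to 0.89) in this fit, and with mouse as a block their SEs were 0.12 and 0.15 in place of 0.34 and 0.38, again with no call. C1qa had the largest estimate, 0.27 (SE 0.24, adjusted p = 0.782), with 218 ± 47.1 CPM in Ova and 263 ± 39.8 in IC, and was higher in 3 of 3 mice.

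In the presence of iBET, again no member was called with IC, while 0.349% of all genes were (40 genes, and between 0 without mouse B and 305 without mouse A). C5ar1, the receptor for C5a, came closest. It measured 613, 548 and 451 CPM in the iBET Ova libraries of mice A, B and C, and 693, 704 and 648 CPM in their iBET IC libraries. These groups did not overlap, which was true of 18.9% of all genes in this comparison. The log2 fold change was 0.34 (SE 0.14), with an unadjusted p of 0.0264 and an adjusted p of 0.565 (edgeR), so it did not pass the test over all genes. Averaged over the drug arms the change of C5ar1 was 0.25 (SE 0.097, adjusted p = 0.207), against 2.95% of genes called. Without mouse A it passed in iBET (log2 0.46, adjusted p = 0.0486) and on average (0.33, adjusted p = 0.0262).

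The difference between the IC responses with and without iBET was tested as an interaction. It was called in no member and in 0% of all genes in this fit, with 292 genes at an unadjusted p under 0.05 and none of them a member. The estimates for members ran from -0.22 (C3) to 0.18 (C5ar1) on the log2 scale, with standard errors between 0.19 for C5ar1 and 0.51 for Cfb. With mouse as a block the interaction was -0.24 (SE 0.16) for C3 and 0.18 (SE 0.18) for C5ar1, again with no call.

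iBET itself moved the receptors of the anaphylatoxins in opposite directions. C3ar1 fell and C5ar1 rose, under Ova and under IC alike, and these were the only members called in the fit with 1 term per group. That is 2 of 8 members in each stimulation, beside 31.3% of all genes called in Ova and 34.8% in IC, so the share of members was near that of all genes. In a bulk sample fewer cells of a type and less RNA per cell cannot be told apart.

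For C3ar1 the DMSO Ova libraries of mice A, B and C held 2110.45, 2049 and 1866 CPM, and their iBET Ova libraries held 1605, 1326 and 973 CPM. Under IC the DMSO libraries held 2036, 2159 and 1836 CPM, and the iBET libraries 1580.1, 1351 and 1172 CPM. Every iBET library lay below every DMSO library, and mouse C was lowest in each group. Groups that did not overlap were found for 45.1% of all genes in Ova and 48.6% in IC. The log2 fold change was −0.63 (SE 0.17, adjusted p = 0.013 by edgeR) in Ova and −0.56 (SE 0.17, adjusted p = 0.0208) in IC, or 1.54-fold and 1.47-fold lower, and the fall was seen in 3 of 3 mice each time. The call in Ova held when any 1 library was left out. Without mouse B it was lost in both stimulations (adjusted p = 0.162 in Ova and 0.232 in IC), and in Ova also without mouse C (0.0506). In IC the omission of 1 library ended the call in 3 cases, iBET of mouse C (0.0889), iBET of mouse B (0.0642) and DMSO of mouse B (0.0647), with the estimate at -0.45 or further from 0 in each.

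C5ar1 went the other way. The DMSO Ova libraries of mice A, B and C held 334, 411 and 404 CPM against 613, 548 and 451 CPM with iBET, and the DMSO IC libraries 365, 478 and 449 CPM against 693, 704 and 648 CPM with iBET. The groups did not overlap in either stimulation, as for those same shares of all genes, although in Ova the change of mouse C (0.16 on the log2 scale) was much smaller than that of mouse A (0.88). The rise was 0.49 (SE 0.14, adjusted p = 0.0173) in Ova and 0.66 (SE 0.14, adjusted p = 0.00255) in IC, or 1.4-fold and 1.58-fold. In IC the call held with any 1 library or mouse left out, the highest adjusted p being 0.0496 without mouse B. In Ova it was lost when only the compared groups were fitted (adjusted p = 0.0587), without the Rn45s-rich library (0.35, adjusted p = 0.0984), without iBET Ova of mouse A (0.38, 0.0768) or of mouse B (0.0544), and on leaving out all of mouse A (0.26, 0.0828) or all of mouse B (0.134).

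The balance of the receptors can be read within each library, where normalization plays no part. C5ar1 counts were 0.192 ± 0.0302 of C3ar1 counts in DMSO Ova and 0.419 ± 0.0409 in iBET Ova, and 0.215 ± 0.0331 in DMSO IC and 0.504 ± 0.0589 in iBET IC (n = 3 each). The highest ratio in a DMSO library was 0.244 and the lowest in an iBET library 0.382. This pair was chosen after its changes were seen, so the shift, 2.28-fold over both stimulations, is given without a test.

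C5ar2, the second C5a receptor and the neighbour of C5ar1 on chromosome 7, fell with iBET. Its DMSO Ova libraries held 44.2, 36.1 and 30.2 CPM and its iBET Ova libraries 9.8, 9.93 and 7.33 CPM. Under IC the DMSO libraries held 30.04, 32.3 and 23.0 CPM and the iBET libraries 9.55, 12.6 and 8.75 CPM. The fall was 4.00-fold in Ova (log2 −1.999, SE 0.20, adjusted p = 2.1e-05) and 2.76-fold in IC (log2 −1.46, SE 0.20, adjusted p = 0.000138), and held with any library or mouse left out. Neighbouring genes of 1 ligand thus moved in opposite directions. There were 10.8 ± 2.97 C5ar1 counts for each C5ar2 count in DMSO Ova and 59.7 ± 3.93 in iBET Ova, and 15.5 ± 3.75 against 67.5 ± 10.1 in IC. This pair, too, was chosen after its changes were seen, so its ratio is given without a test.

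**Figure D2:**
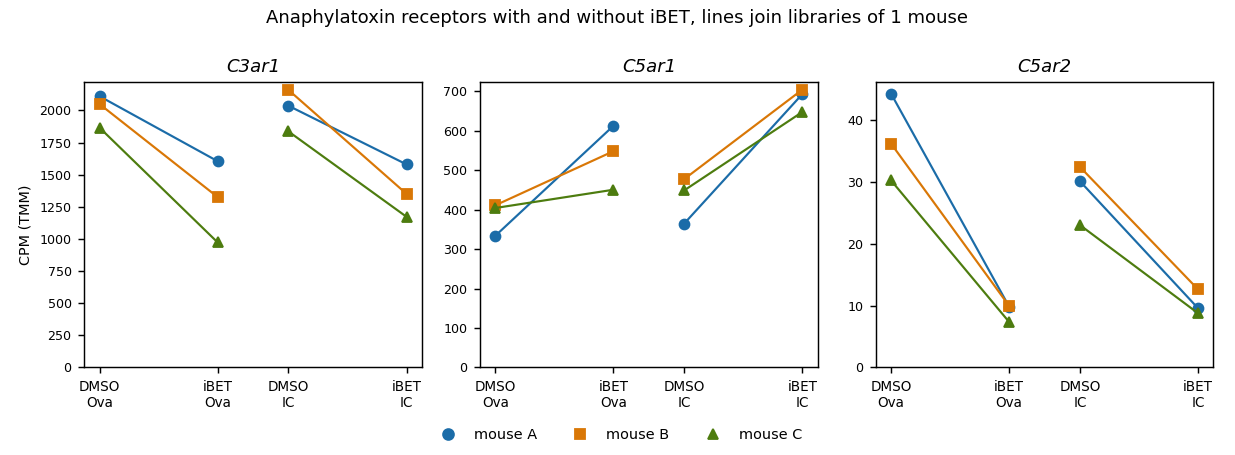
TMM-normalized CPM (linear axes from 0) of the anaphylatoxin receptor transcripts C3ar1, C5ar1 and C5ar2 in DMSO and iBET libraries under Ova and IC, with lines joining the libraries of 1 mouse. C3ar1 and C5ar2 fall and C5ar1 rises in each of 3 mice under both stimulations.

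Of the markers of other cells, the endothelial list moved with the drug. It summed to 18.5 to 27.0 CPM in DMSO libraries and 11.5 to 16.7 CPM in iBET libraries, nearly all of it Kdr, while Cdh5 reached at most 1.43 CPM. Dendritic cell markers summed to at most 1.55 CPM and fibroblast markers to at most 2.05 CPM in any library. The macrophage list summed to 5568 to 6561 CPM in DMSO IC and 7017 to 7707 CPM in iBET IC. Under Ova it summed to 5809 to 6914 CPM with DMSO and 6369 to 7655 CPM with iBET. Its genes did not move together: in IC, Fcgr1 went from 216, 181 and 131 to 147, 93.6 and 79.0 CPM. Lyz2 went from 2613, 3258 and 3219 to 3823, 4361 and 3893 CPM (mice A, B and C). The part of these markers in the receptor changes was not tested.

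Among the C1q chains, estimates of the change with iBET varied between mice. C1qa held 202, 271 and 181 CPM in DMSO Ova and 370.2, 292 and 261 CPM in iBET Ova in mice A, B and C. Its log2 fold change with iBET was 0.49 (SE 0.24, adjusted p = 0.137 by edgeR) in Ova and 0.36 (SE 0.24, adjusted p = 0.267) in IC. The groups overlapped in both, in Ova only in that the iBET library of mouse C (261 CPM) lay below the DMSO library of mouse B (271 CPM). The change was 0.87 and 0.76 in mouse A, 0.11 and 0.27 in mouse B, and 0.53 and -0.09 in mouse C. Without the iBET IC library of mouse C the estimate in IC was 0.59 and was called (adjusted p = 0.0438). Without mouse A the estimates were 0.26 in Ova (adjusted p = 0.603 by edgeR) and 0.11 in IC (adjusted p = 0.83). With mouse as a block in edgeR, C1qa was called in Ova (0.50, SE 0.16, adjusted p = 0.0308).

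C1qb changed by 0.17 (SE 0.20, adjusted p = 0.561) with iBET in Ova and 0.25 (SE 0.20, adjusted p = 0.372) in IC, where the mouse block gave a call (0.24, SE 0.079, adjusted p = 0.0275). It was higher with iBET in 3 of 3 mice in each stimulation. C1qc, in contrast, measured 332 ± 106 and 326 ± 64.5 CPM in DMSO and iBET under Ova and 328 ± 82.8 and 331 ± 76.5 CPM under IC, with log2 changes of -0.02 (95% interval -0.60 to 0.57) and 0.01 (-0.57 to 0.59). With mouse as a block these changes of C1qc were 0.0076 (SE 0.087) in Ova and 0.018 (SE 0.087) in IC, again with no call.

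Counts of the chains relative to each other were compared within each library, for pairs chosen after the data were seen and therefore with no test. C1qc counts were 0.914 ± 0.115 of C1qb counts in DMSO Ova and 0.815 ± 0.0180 in iBET Ova, and 0.897 ± 0.0893 and 0.767 ± 0.0300 under IC. In mouse A this ratio went from 1.05 to 0.796 under Ova, in mouse B from 0.865 to 0.819 and in mouse C from 0.832 to only 0.831. Under IC it went from 0.999 to 0.794 in mouse A, from 0.856 to 0.771 in mouse B and from 0.835 to 0.735 in mouse C. Averaged over both stimulations the shift with iBET on the log2 scale was −0.19 ± 0.15 (SD over 3 mice) for C1qc against C1qb, 0.20 ± 0.30 for C1qa against C1qb and 0.39 ± 0.45 for C1qa against C1qc. Without the Rn45s-rich library these were −0.14, 0.12 and 0.26.

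C3, the component on which the pathways meet, held 85.3, 114 and 52.7 CPM in DMSO Ova and 127, 135 and 65.8 CPM in iBET Ova. The increase was 0.38 (SE 0.34, adjusted p = 0.442) and was called with mouse as a block (0.37, SE 0.12, adjusted p = 0.0247). In IC it was 0.16 (SE 0.34, adjusted p = 0.746), from 97.1 ± 20.0 to 108 ± 32.3 CPM. Mouse C held the lowest C3 level in each of the 4 groups.

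For Cfb, the protease of the alternative pathway, levels went from 10.3, 9.12 and 5.64 CPM in DMSO Ova to 14.5, 12.4 and 6.66 CPM in iBET Ova. Under IC they went from 11.5, 7.92 and 5.53 to 14.5, 12.4 and 7.55 CPM. The estimates were 0.50 (SE 0.37, adjusted p = 0.339) and 0.47 (SE 0.35, adjusted p = 0.324), higher with iBET in 3 of 3 mice in both. The block called it in IC (0.46, SE 0.14, adjusted p = 0.0196), as did 1 surrogate variable (0.75, adjusted p = 0.0416), but DESeq2 with the same block did not (0.43, adjusted p = 0.0655). Cfp, which encodes properdin, stood at 203 ± 49.99 CPM in DMSO Ova and 247 ± 20.6 in iBET Ova, a log2 change of 0.28 (SE 0.17, adjusted p = 0.246), and in IC at 228 ± 44.8 and 255 ± 23.0 CPM, a change of 0.16 (SE 0.17, adjusted p = 0.499).

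With mouse as a block, then, 4 members were called in Ova (C1qa, C3, C3ar1 and C5ar1, beside 38.3% of all genes) and 4 in IC (C1qb, Cfb, C3ar1 and C5ar1, beside 42.1%). Averaged over the stimulations, iBET changed C3ar1 (−0.59, SE 0.12, adjusted p = 0.00121) and C5ar1 (0.57, SE 0.097, adjusted p = 0.000357) without the block, where 48.6% of genes were called. C1qa was at 0.43 (SE 0.17, adjusted p = 0.0537 by edgeR). It passed without mouse C (0.49, adjusted p = 0.0231) but was at 0.19 without mouse A (adjusted p = 0.562). With the block 7 of 8 were called, with 54.8% of all genes: C3ar1 lower, and C1qa (0.41), C1qb (0.20), C3 (0.25), C5ar1 (0.58), Cfb (0.42) and Cfp (0.24) higher. C1qc was the exception at 0.01 (adjusted p = 0.877). The blocked average of C3 and of Cfp was not called by DESeq2 with the same block (adjusted p = 0.0503 and 0.0795).

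**Figure D3:**
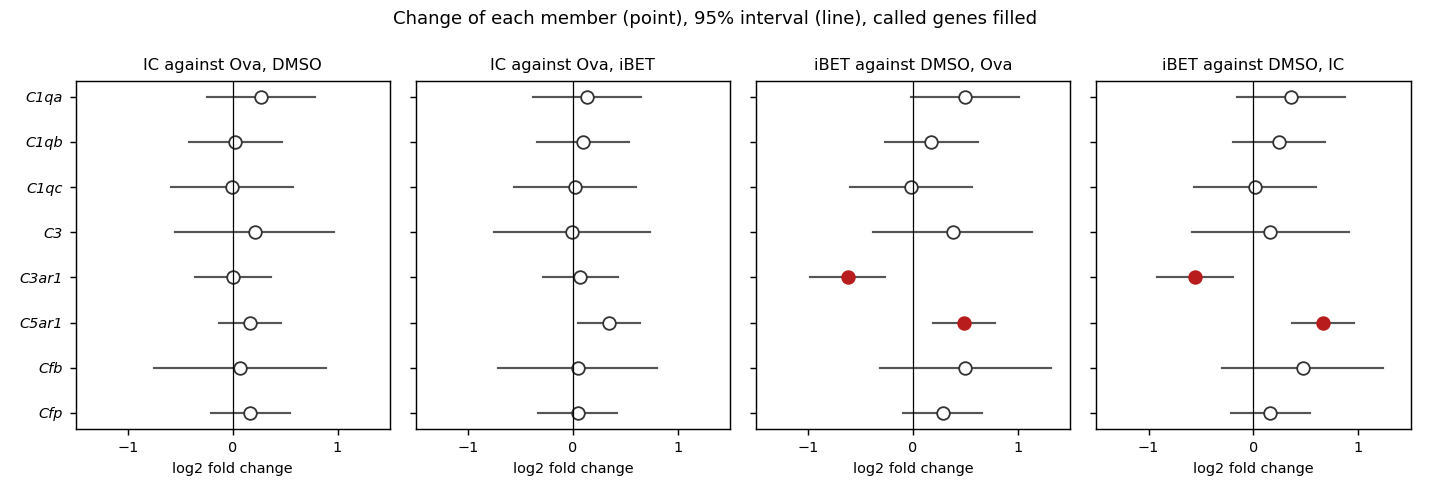
Log2 fold change of each member (points) with its 95% interval (lines) in the comparisons of IC with Ova and of iBET with DMSO, from the edgeR fit without a mouse term, with filled points for an adjusted p under 0.05. C3ar1 (lower) and C5ar1 (higher) are filled in both iBET panels, and no member is filled in the IC panels.

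Differences between the animals were then tested with the mouse terms of the blocked edgeR fit, a comparison added after the data were seen. They were called in 4 of 8 members, C1qb, C1qc, C3 and Cfb, beside 5.55% of all genes, a share that ran from 3.07% to 17.2% with 1 library left out. C1qc averaged 416 ± 20.5 CPM over the 4 libraries of mouse A, 319.96 ± 7.72 in mouse B and 252 ± 14.4 in mouse C (adjusted p = 0.000214 by edgeR), and the ranges of the mice did not overlap. C1qb averaged 463 ± 49.1, 388 ± 29.1 and 313 ± 28.4 CPM (adjusted p = 0.000686), with mouse A highest and mouse C lowest in 4 of 4 groups.

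C3 averaged 112 ± 20.0 CPM in mouse A, 122 ± 11.2 in mouse B and 66.0 ± 9.48 in mouse C (adjusted p = 0.000236), with mouse B highest in 4 of 4 groups. Cfb averaged 12.7 ± 2.13, 10.5 ± 2.28 and 6.34 ± 0.952 CPM (adjusted p = 0.00089). For these transcripts the log2 difference of mouse C from mouse A, -0.56 for C1qb, -0.72 for C1qc, -0.76 for C3 and -1.01 for Cfb, was larger than any change with iBET or IC in the same genes. The 4 calls held with each of the 12 libraries left out in turn, with a highest adjusted p of 0.00831, and without iBET Ova of mouse A, C3ar1 and Cfp were called too, 6 members beside 17.2% of all genes.

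The other members differed less between animals. C1qa and C3ar1 were also lowest in mouse C in 4 of 4 groups, with adjusted p of 0.117 and 0.0837, and DESeq2's likelihood ratio test called both (0.0446 and 0.0427). C5ar1 averaged 501, 535 and 488 CPM in mice A, B and C (adjusted p = 0.668). Cfp ran the other way and was highest in mouse C in 4 of 4 groups, at 268 ± 10.8 CPM against 219.99 ± 49.8 in mouse A and 212 ± 17.3 in mouse B, but was not called (adjusted p = 0.121). Neutrophil markers, of which 7 of 8 were in the table, also differed by mouse, summing to 7.70 to 15.4 CPM in mouse A, 18.4 to 42.5 in mouse B and 41.2 to 50.7 in mouse C, and macrophage markers to 5568 to 7655, 6561 to 7707 and 5906 to 7017 CPM. Their part in these differences was not tested, and the animal, its culture and its handling cannot be told apart with 1 culture series per mouse.

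**Figure D4:**
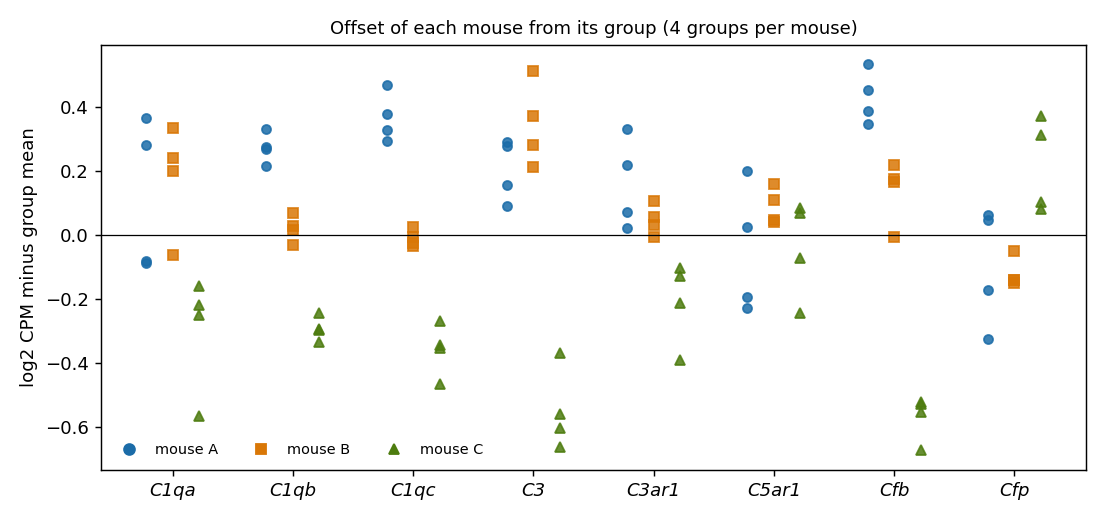
Log2 CPM of each library minus the mean log2 CPM of its group, for mice A, B and C (4 groups per mouse), for each complement transcript. All 4 points of mouse C lie below 0 for C1qa, C1qb, C1qc, C3, C3ar1 and Cfb and above 0 for Cfp, while those of C5ar1 are mixed.

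The genes whose levels ran most like each member over the 12 libraries were found by Pearson correlation of log2 CPM, as a description only, since the libraries share mice and drug. C5ar1 had 254 genes with r above 0.9, led by Mat2a (0.99), Cdkn1a (0.99) and Chmp1a (0.98), and C3ar1 had 129, led by Eps8, Thbs1 and Cd84 (each 0.97). These are the members called with iBET in the fit with 1 term per group. The others had between 3 and 7 such genes. C1qb ran with Timp2 (0.95), with Cfb itself (0.95) and with Irf7 (0.91), a regulator of the interferon response, and Cfb with C1qb, Itgb2 (0.94) and Irf7 (0.94). C1qc followed Cd5l (0.95), Itm2b (0.94) and Apoe (0.93), C1qa followed Pld3 (0.96), Folr2 (0.92) and Npc2 (0.91), C3 followed Gpnmb (0.95), Il18bp (0.92) and Fabp5 (0.91), and Cfp followed Pgls (0.96), Gcnt2 (0.92) and Mvb12a (0.92).

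Among the members, C1qb correlated with C1qc at r = 0.89 and with C1qa at 0.74, whereas C1qa and C1qc, whose genes lie closest together, reached 0.45. C3ar1 and C5ar1 were at r = -0.56. These values describe 12 libraries that share animals and drug arms.

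A wider list of 57 other complement genes, compiled with earlier results of these data known, had 52 in the table and 18 that were tested. The 34 not tested never exceeded 17 counts in a library, and 16 of them, among them Hc (which encodes C5), Cfd and Clu, were at 0 counts in all 12 libraries. A count of 0 allows up to 3 counts, or between 0.160 and 1.54 CPM depending on the library, and these limits cover counting error only. None of the 7 terminal pathway genes in the table was tested, and of the classical pathway C2, C4a and C4b were below the filter while C1ra, C1rb and C1rl passed it.

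With IC none of the 18 was called in either arm, beside 1.22% of all genes in DMSO and 0.349% in iBET. With iBET 3 of the 18 were called in Ova and 4 in IC, beside 31.3% and 34.8% of all genes. Calr, the chaperone calreticulin that also binds C1q at the cell surface, stood at 3152 ± 229.9 CPM in DMSO Ova and 5496 ± 564 in iBET Ova, a rise of 0.80 (log2, SE 0.12, adjusted p = 0.000288). Under IC it stood at 3229 ± 172 and 4806 ± 508 CPM, a rise of 0.57 (SE 0.12, adjusted p = 0.00235). Cd93, a membrane protein first described as a C1q receptor for phagocytosis, was lower with iBET in Ova, at 424 ± 33.2 against 585 ± 27.7 CPM (log2 −0.46, SE 0.096, adjusted p = 0.003), and in IC, at 454 ± 24.9 against 631 ± 41.8 CPM (log2 −0.48, SE 0.096, adjusted p = 0.00223).

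C5ar2 fell in both, as given above. C1qbp, a mitochondrial protein that binds the globular heads of C1q, was lower in IC (−0.33, SE 0.095, adjusted p = 0.0171) and at -0.14 (SE 0.097, adjusted p = 0.317) in Ova. Without mouse B, Cd93 lost its call in Ova (adjusted p = 0.128) and in IC (0.0888) and Calr in IC (0.073), and C1qbp in IC lost its call without any 1 of the mice (0.0626 to 0.138). Averaged over the stimulations C1rl (−1.04, adjusted p = 0.0324), a gene with at most 20 counts in a library, and Colec12, a scavenger receptor with a collectin domain (−0.38, adjusted p = 0.0259), were also lower. The median log2 change over the 18 genes was -0.02 in Ova and 0.04 in IC, against 0.33 and 0.20 over the 8 members and 0.02 and -0.00366 over all genes tested.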

How the data were processed

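Total RNA of 12 BMDM libraries (4 groups of 3; mice A, B and C each in every group) was sequenced. The deposited counts per gene symbol were made by the authors with CASAVA, FastQC, Trim Galore, HISAT2 (mm10) and featureCounts; use of strand and of reads with several alignments was not given in the sources used here. The deposited normalized signal equalled counts divided by DESeq2 size factors (largest relative gap 4.88e-15) and served as an alternative scale. Counts were filtered by filterByExpr (minimum count 10) and analysed with TMM factors and 1 robust quasi-likelihood fit of 12 libraries with 1 term per group in edgeR 4.0.16 (R 4.3.3), two-sided, with Benjamini-Hochberg adjustment over 11468 genes. SE is the absolute log2 fold change over the square root of F. Changes per mouse used a prior count of 2. The script was tested on simulated data: it recovered the direction and size of changes with few false calls, but a criterion first set on the share of 2-fold changes called was not met and was dropped, and most 1.5-fold changes were not called, so an uncalled member may still have changed by that much.

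Libraries of 1 mouse are paired by the labels: deviations from group means correlated at -0.0725 to 0.542 (median 0.263) in the 18 same-mouse pairs. Alternatives were DESeq2 1.42.0, its size factors in edgeR, other filters, a mouse block, Rn45s removed, 1 surrogate variable (sva 3.50.0), compared groups alone, adjusted p under 0.01, and each library or mouse left out. The mouse test, the count ratios and DESeq2 with the block were added after the data were seen. Each culture came from 1 mouse. The 8 members and all lists were chosen with earlier results of these data known; named were all members, other complement genes called in a pairwise comparison or where a count was 5 or lower, and the 3 genes most like each member. The planned protein comparison was not run. The comparison of IC responses between the drug arms for 1 complement gene is not reported here.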

Additional observations from a re-analysis of the deposited data

Results flagged for a closer look

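Itgax, the alpha chain of complement receptor 4, had IC responses of opposite sign in the drug arms in 3 of 3 mice. This pattern was looked for in 26 complement genes and met by 2, so Itgax was picked from many. Itgax is given here as a description. It changed by -0.27 on the log2 scale in DMSO and 0.07 in iBET. Its interaction was 0.34 (SE 0.74, adjusted p = 1 by edgeR, 0.66 unadjusted), and 0.34 (SE 0.17, adjusted p = 1, 0.071 unadjusted) with mouse as a block. It did not pass the test over all genes.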

How the results depend on the processing

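C3ar1 lower and C5ar1 higher with iBET kept their directions in both stimulations under every alternative run, and their calls under every alternative but those named in the report (the compared groups alone for C5ar1 in Ova, some single libraries, some mice, and the stricter threshold below). On average over the stimulations the call of C3ar1 was lost without mouse B (−0.56, adjusted p = 0.0523 by edgeR). On the authors' normalized values no member's ratio of mean levels between compared groups moved by as much as the SD of its ratios per mouse. DESeq2 size factors shifted the median of all genes by at most 0.04 (−0.04, log2), and the 250-base window changed no motif count of the members. A total of 3 mice per group, 1 library with few counts outside Rn45s and the low counts of Cfb limit what can be detected.

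Members called with iBET in Ova (2) became 0 at an adjusted p under 0.01, 1 with the compared groups alone, 4 with mouse as a replicate block and 4 in DESeq2 with that block. In IC (2) they became 1 at the stricter threshold and 4 with the block, and were 3 in DESeq2 with the block. Averaged over the stimulations (2) they became 7 with the block, 5 in DESeq2 with the block and 4 with 1 surrogate variable, and the other complement genes (6) became 3 at the stricter threshold. With 1 library or mouse left out, members called ranged from 0 to 2 (iBET in Ova), 1 to 2 (iBET in IC), 1 to 4 (iBET averaged), 0 to 1 (IC in iBET) and 0 to 1 (IC averaged), and other complement genes from 1 to 4 (iBET in IC) and 3 to 6 (iBET averaged). The block changed no other call of a member than those in the report. Over all genes, calls for IC in DMSO (140) became 315 with the block, 268 in DESeq2, 427 in DESeq2 with the block, 504 with 1 surrogate variable, 48 at the stricter threshold and 5 with the compared groups alone, for IC in iBET (40) 85, 113, 177, 130, 19 and 99 in the same order, and for IC averaged (338) 658, 540, 791, 909 and 144 in that order, the last setting not applying. The interaction (0) gave 4 in DESeq2 and 6 with its block, none of them a member, and the stricter threshold left 2129 (iBET in Ova, 3593) and 2496 (iBET in IC, 3987). With 1 library or mouse left out, calls over all genes ranged from 0 to 159 (IC in DMSO), 0 to 305 (IC in iBET), 6 to 882 (IC averaged), 1310 to 3899 (iBET in Ova), 1769 to 4469 (iBET in IC), 3529 to 5614 (iBET averaged) and 0 to 1 (interaction).

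The direction turned for uncalled members near 0 (log2; the cause was not tested). For IC in DMSO, C1qc was 0.0023 with the replicate block, 0.0059 in DESeq2 with it and 0.075 with 1 surrogate variable, Cfb -0.034, -0.037 and -0.014 in the same order, and C3ar1 -0.000315 with Rn45s removed. For IC in iBET, C3 was 0.0045 with no low-count filter, 0.0078 with the block, 0.014 in DESeq2 with it, 0.0043 with Rn45s removed, 0.050 with 1 surrogate variable and 0.0057 with the compared groups alone, and Cfp -0.014 with 1 surrogate variable. For iBET, C1qc in Ova was 0.0076 with the block and 0.17 with 1 surrogate variable; in IC it was -0.015 with DESeq2 size factors, -0.016 with at least 10 counts in every library, -0.015 in DESeq2 and -0.012 in DESeq2 with the block; on average it was 0.0065 with no filter, 0.013 with the block and 0.19 with 1 surrogate variable.

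With 1 library or mouse left out, IC in DMSO ranged from -0.13 to 0.14 (C1qb), -0.21 to 0.22 (C1qc), -0.055 to 0.53 (C3), -0.052 to 0.063 (C3ar1), -0.24 to 0.30 (Cfb) and -0.0069 to 0.38 (Cfp). IC in iBET ranged from -0.057 to 0.36 (C1qa), -0.050 to 0.28 (C1qb), -0.16 to 0.18 (C1qc), -0.27 to 0.22 (C3), -0.10 to 0.25 (C3ar1), -0.21 to 0.29 (Cfb) and -0.020 to 0.12 (Cfp), and the interaction of C3 from -0.54 to 0.047. iBET in Ova ranged from -0.0098 to 0.31 (C1qb) and -0.22 to 0.19 (C1qc), and C1qc from -0.16 to 0.19 in IC and -0.10 to 0.10 on average.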
